A study of Homo sapiens and Mus musculus with 12 samples.

Results

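Krüppel-like factors (KLF) are transcription factors with a zinc finger region that binds GC-rich and CACCC-type DNA. The 10 human genes KLF2, KLF3, KLF4, KLF5, KLF6, KLF7, KLF9, KLF10, KLF12 and KLF13, with their mouse orthologs, are described here in NOTCH2NL cortical organoids. These 10 genes were chosen by name, with earlier results of both comparisons in these libraries in view. They are 10 of 60675 human gene identifiers and 10 of 47729 mouse identifiers, and they were read in all 12 libraries. Human genes were found by symbol and mouse genes by gene description (Klf2 is ENSMUSG00000055148). Because both comparisons were known when the genes were chosen, the levels and folds of the 10 members are given as a description. No test of them is offered as support for anything. The relatives and gene lists further below were also chosen with earlier results known, so their tests are description too.

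The libraries are polyA-selected RNA-seq of cortical organoids, aggregates of stem cells grown toward embryonic forebrain. NOTCH2NL genes arose in the human lineage from part of the Notch receptor gene NOTCH2, and the study asked what their loss does in human organoids and what expression of 1 form does in mouse organoids. The 6 human libraries are from the established line H9 of embryonic stem cells, 3 of them labelled WT, from a control line of the same CRISPR/Cas9 work, and 3 labelled NOTCH2NL knockout (KO). All human organoids received SB431542 (a blocker of the TGF-beta and activin receptors), Dorsomorphin, IWR-1-Endo and Cyclopamine, the last of them until day 24, and were harvested at week 4 (day 28) in pools of 5 to 10. The 6 mouse libraries came from stable lines of 46C embryonic stem cells with an empty vector (EV, 3 libraries) or with NOTCH2NL-Sh_T197I cDNA (N2NL, 3 libraries), harvested at day 6 in pools of 16. Each of the 4 groups carries 1 line code in the sample descriptions, so genotype or vector and the line it was measured in cannot be told apart. In human the code of the WT line holds the letters del, as that of the KO line does. Which promoter drives the vector was not stated in the labels. The labels do not say that pools came from separate cultures, so p-values measure the spread between pools, which may be technical.

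KLF2, KLF4 and KLF5 support the naive state of mouse embryonic stem cells, and KLF2 and KLF4 are also raised by fluid flow in endothelium through the MEK5, ERK5 and MEF2 cascade. KLF6 and KLF7 promote axon growth in neurons, while KLF4 and KLF9 restrain it. KLF3, KLF8 and KLF12 repress through CtBP, whereas KLF9, KLF10, KLF11, KLF13 and KLF16 recruit the Sin3A co-repressor. KLF9 is induced by glucocorticoids and thyroid hormone, and KLF10 and KLF11 by TGF-beta.

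The sequence just upstream of the member with the lowest level per length in the human organoids, KLF2, and of the member with the highest, KLF13, is shown to set a near-silent gene beside a strongly read one. Both runs are from the RefSeq promoter table (GRCh38.p14), plus strand, 5′ to 3′, and capitals mark GC boxes (GGGCGG on either strand, the core bound by SP and KLF proteins) and the MEF2-type motif (CTA, any 4 bases, then TAG). KLF2 is given at chr19:16324576-16324816 and KLF13 at chr15:31326585-31326834.
KLF2: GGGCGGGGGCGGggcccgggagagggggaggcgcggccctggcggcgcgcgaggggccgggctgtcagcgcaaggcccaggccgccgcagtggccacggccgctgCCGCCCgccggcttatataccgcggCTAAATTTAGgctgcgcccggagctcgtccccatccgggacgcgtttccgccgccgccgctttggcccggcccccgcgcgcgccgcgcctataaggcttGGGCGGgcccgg
KLF13: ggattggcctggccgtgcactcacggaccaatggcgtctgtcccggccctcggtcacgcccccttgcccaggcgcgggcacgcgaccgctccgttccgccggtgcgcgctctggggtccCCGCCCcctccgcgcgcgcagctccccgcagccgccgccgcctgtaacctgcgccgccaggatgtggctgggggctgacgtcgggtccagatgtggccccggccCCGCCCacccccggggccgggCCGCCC
The KLF2 run holds 4 GC boxes and 1 MEF2-type match, 120 bases before the RefSeq start, and the KLF13 run holds 3 GC boxes and no MEF2-type match.

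Of the 10 members, 8 had at least 1 window of 250 bases before a start in that table, 15 windows in all. KLF3 and KLF10 were not among them. A GC box lay in 7 of the 15 windows, belonging to 7 genes (KLF2, KLF4, KLF5, KLF6, KLF7, KLF12 and KLF13), and in 42.6% of all 35114 windows of that length. The letters CACCC, on either strand, lay in 7 of the 15 windows, belonging to 4 genes, and in 54.7% of all windows. Of the 17 CACCC matches in member windows 3 overlapped a GC box. The MEF2-type motif lay in 2 windows (KLF2 and KLF12) and in 2.36% of all windows, and TATAAA lay in 1 window (KLF5) and in 10.7% of all. These are matches of letters only. No promoter table of mouse genes was used here.

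Libraries held 15381409 to 16382938 counts in human and 16781742 to 20960391 in mouse, so that 3 counts, the most that a count of 0 allows, correspond to 0.183 to 0.199 CPM (counts scaled to a common library size) in human and 0.142 to 0.178 in mouse, counting error only. NOTCH2NL itself had 4, 5 and 3 counts in the WT libraries and 0 in each KO library. In the authors' deposited table for mouse it stood at 0 in the EV libraries and at 801, 709 and 740 normalized counts in N2NL 1 to 3. Levels are CPM with library sizes scaled by TMM, each printed as a mean ± SD over 3 libraries, and differences are log2 fold changes of KO over WT or N2NL over EV with an approximate standard error. Neural progenitor markers were read in every library (10 genes; summed level 4441 to 4824 CPM in WT, 3710 to 4532 in KO, 2091 to 2188 in EV and 1959 to 2256 in N2NL), and none of the 10 was at 0. In mouse the pluripotency markers Pou5f1 (121 ± 10.98 CPM in EV) and Nanog (71.9 ± 4.61 CPM in EV) were still read at day 6, whereas in human POU5F1 and NANOG were near 0.

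In the human organoids 6 members were read well and 4 were barely read. Per kilobase of exon in GENCODE 29, the mean WT levels ran from KLF13 (12.6 CPM per kilobase, range 12.2 to 13.3) and KLF10 (11.3, range 10.99 to 11.88) through KLF7 (7.95, range 7.66 to 8.34), KLF6 (7.11, range 6.77 to 7.61) and KLF12 (6.90, range 6.29 to 7.53) to KLF3 (5.32, range 4.66 to 6.06). KLF6 and KLF12 overlapped, and the other neighbours in this order did not. KLF4 (0.255 CPM per kilobase), KLF9 (0.237), KLF5 (0.154) and KLF2 (0.150) came last, with ranges that overlapped from each to the next. In KO the place of KLF10 differed: it stood at 4.84 ± 0.485 CPM per kilobase (range 4.34 to 5.30), within the range of KLF3 (3.98 to 5.55) and below KLF6 (5.36 to 6.28), while KLF13 stayed first. Mouse genes were not compared with each other because no mouse gene lengths were used here.

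**Figure D1:**
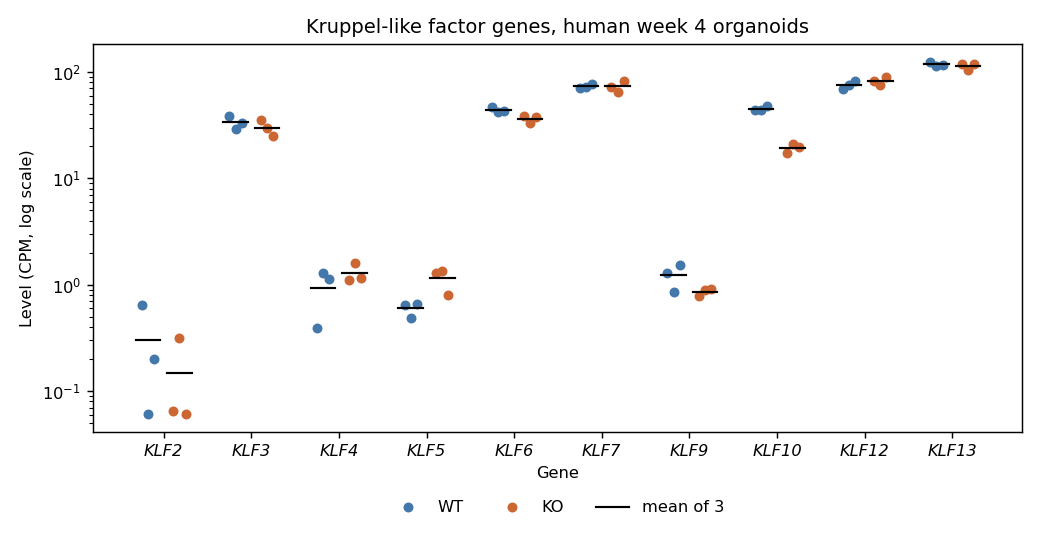
Level of each of the 10 Krüppel-like genes in the 3 WT and 3 KO human libraries, in CPM on a log axis; points are libraries 1 to 3 from left to right and bars the mean of 3. KLF10 is at 44.0 to 47.6 CPM in WT and 17.4 to 21.2 in KO, while KLF2, KLF4, KLF5 and KLF9 lie below 2 CPM in every library.

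Among the Sin3A-recruiting members, KLF10 (ENSG00000155090; GRCh38 chromosome 8, 102648779 to 102655902, minus strand), a gene induced early by TGF-beta, gave the widest difference of the 9 members tested in human. Its level was 44.0, 44.1 and 47.6 CPM in WT 1 to 3 and 17.4, 21.2 and 19.6 CPM in KO 1 to 3. Every KO library lay below every WT library, by more than the spread within either group. The means were 45.2 ± 2.03 and 19.4 ± 1.94 CPM, a log2 fold change of -1.22 ± 0.11 (0.429-fold). The log2 fold change ran from -1.29 to -1.13 over 11 other ways of processing, and the authors' deposited table gives -1.13 with a standard error of 0.13. KLF10 was the 1 member of 9 tested that passed the threshold (adjusted p under 0.05), against 5.5% of all 16956 genes tested, and nothing is read from that count since the comparison was known when the genes were chosen.

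KLF13 (ENSG00000169926; chromosome 15, 31326855 to 31435665, plus strand; overlapping the pseudogene UBE2CP4), a relative of KLF9, showed no such gap. It stood at 118 ± 5.74 CPM in WT and 114.0 ± 7.70 in KO, a log2 fold change of -0.05 ± 0.08 whose sign turned in 1 of the 11 other ways of processing, and the groups overlapped. KLF9 (ENSG00000119138; chromosome 9, 70384597 to 70414624, minus strand) was read 20, 14 and 23 times in WT and 12, 14 and 15 in KO. The groups overlapped, with means of 1.23 ± 0.342 and 0.862 ± 0.0727 CPM and a log2 fold change of -0.50 ± 0.37. In bulk RNA, fewer cells of a type and less RNA per cell cannot be told apart, here or for any value below.

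Of the axon growth pair, KLF6 (ENSG00000067082; chromosome 10, 3775996 to 3785281, minus strand) was read at 46.7, 41.6 and 42.7 CPM in WT 1 to 3 and 38.5, 32.9 and 37.5 CPM in KO 1 to 3. The KO libraries all lay below the WT libraries, but by little. The log2 fold change was -0.27 ± 0.10 and did not pass the threshold. KLF7 (ENSG00000118263; chromosome 2, 207074137 to 207167267, minus strand; overlapping KLF7-IT1, MIR2355 and MIR7845) stood at 73.7 ± 3.22 CPM in WT and 73.0 ± 8.53 in KO, with overlapping groups. Its log2 fold change of -0.01 ± 0.10 changed sign in 4 of the 11 other ways of processing.

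The CtBP-recruiting members overlapped between genotypes. KLF3 (ENSG00000109787; chromosome 4, 38664196 to 38701042, plus strand) stood at 33.5 ± 4.42 CPM in WT and 30.0 ± 4.94 in KO, a log2 fold change of -0.16 ± 0.14. It overlaps KLF3-AS1, and without knowing whether the counting used strand, reads of the pair cannot be told apart. KLF12 (ENSG00000118922; chromosome 13, 73686089 to 73995056, minus strand; overlapping AL138713.1 and AL159972.1) stood at 75.4 ± 6.72 CPM in WT and 82.0 ± 6.44 in KO, a log2 fold change of 0.12 ± 0.10.

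The stem cell and flow-responsive members were near the detection limit in the human organoids. KLF2 (ENSG00000127528; chromosome 19, 16324817 to 16327874, plus strand) was read 10, 1 and 3 times in WT 1 to 3 and 1, 5 and 1 times in KO 1 to 3. These counts are too low to compare, and the filter on low counts removed KLF2 from the test. KLF2 also has pseudogenes (KLF2P1 to KLF2P4), so some of its few reads may be shared. KLF4 (ENSG00000136826; chromosome 9, 107484852 to 107490482, minus strand), a reprogramming factor, had 6, 21 and 17 counts in WT and 17, 25 and 19 in KO, with overlapping groups and a log2 fold change of 0.46 ± 0.44. KLF5 (ENSG00000102554; chromosome 13, 73054976 to 73077542, plus strand), which also drives growth of epithelia, had 10, 8 and 10 counts in WT and 20, 21 and 13 in KO. The KO libraries lay above the WT libraries at levels of 0.5996 ± 0.0974 and 1.14 ± 0.302 CPM in WT and KO, and the log2 fold change of 0.92 ± 0.40 did not pass the threshold. With these WT counts, KLF5 needed the KO libraries to pass the filter on low counts.

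As a set, 3 of the 9 human members tested had groups that did not overlap, 1 higher in KO (KLF5) and 2 lower (KLF6 and KLF10). KLF5 passed the filter on low counts only with the KO libraries, where it was higher, so its place in this count is no support. Over all tested genes 28.8% had groups that did not overlap, 14.1% with KO above and 14.8% with KO below. The members' median log2 fold change was -0.05, beside -0.00 over all tested genes, with 6 members below 0 and 3 above. The summed level of the 10 genes was 380.3 to 401.8 CPM in WT and 333.9 to 373.2 CPM in KO.

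In the mouse organoids all 10 members were read and tested, and Klf2, nearly silent in the human organoids, was the one with the widest difference. Klf2 (ENSMUSG00000055148) stood at 25.3, 23.6 and 26.0 CPM in EV 1 to 3 and at 38.0, 42.4 and 37.8 CPM in N2NL 1 to 3. All N2NL libraries lay above all EV libraries, by several times the spread within a group. The means were 25.0 ± 1.23 and 39.4 ± 2.61 CPM, a log2 fold change of 0.66 ± 0.09 (1.58-fold). It was the 1 member of 10 past the threshold, against 0.012% of the 16682 genes tested, which are 2 genes: Klf2 and neuronatin, an imprinted gene of developing brain and endocrine tissue, at 21.1 CPM in EV and 54.6 in N2NL (log2 fold change 1.37 ± 0.14). Nothing is read from the members' count, for the reason given above. Klf2 no longer passed the threshold without EV 2 (log2 fold change 0.62), EV 3 (0.69), N2NL 2 (0.60) or N2NL 3 (0.69), and passed it without EV 1 (0.67) or N2NL 1 (0.68).

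**Figure D2:**
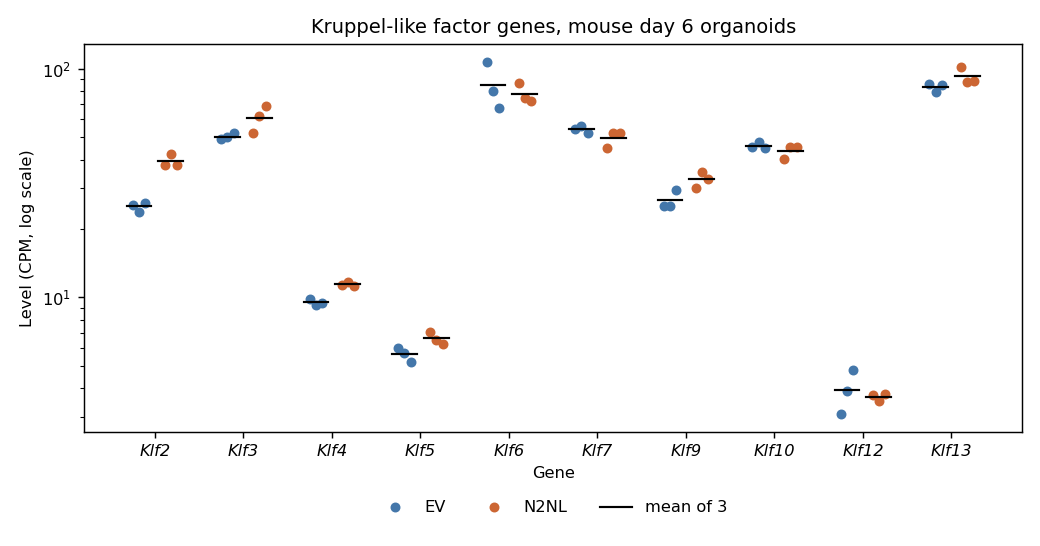
Level of each mouse ortholog in the 3 EV and 3 N2NL libraries, in CPM on a log axis; points are libraries 1 to 3 from left to right and bars the mean of 3. Klf2 lies at 23.6 to 26.0 CPM in EV and 37.8 to 42.4 in N2NL, and the other 9 genes differ by less than Klf2 does.

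The other stem cell members, Klf4 (ENSMUSG00000003032) and Klf5 (ENSMUSG00000005148), also lay higher in N2NL in every library, by small amounts. Klf4 was at 9.88, 9.24 and 9.44 CPM in EV 1 to 3 and 11.3, 11.7 and 11.2 CPM in N2NL 1 to 3, a log2 fold change of 0.26 ± 0.12. Klf5 was at 6.02, 5.73 and 5.23 CPM in EV and 7.08, 6.54 and 6.27 CPM in N2NL, a log2 fold change of 0.23 ± 0.15. Neither passed the threshold, and the gap between the nearest libraries of the 2 groups was small for both.

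Of the Sin3A-recruiting members, Klf9 (ENSMUSG00000033863) was at 25.2, 25.1 and 29.5 CPM in EV and 30.0, 35.5 and 32.8 CPM in N2NL, a log2 fold change of 0.30 ± 0.10. Klf13 (ENSMUSG00000052040) was at 85.9, 79.4 and 85.0 CPM in EV and 102, 87.4 and 88.0 CPM in N2NL, a log2 fold change of 0.15 ± 0.08. For both genes the N2NL libraries lay just above the EV libraries, and neither passed the threshold. Klf10 (ENSMUSG00000037465), the gene lower in human KO, stood at 46.0 ± 1.5 CPM in EV and 43.7 ± 3.03 in N2NL, a log2 fold change of -0.08 ± 0.08 with overlapping groups. The human and mouse contrasts are of different kinds, loss in one and expression in the other, at different ages, and no difference between them was tested.

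Klf3 (ENSMUSG00000029178), which represses through CtBP, was at 49.0, 50.1 and 52.3 CPM in EV and 52.5, 62.2 and 68.5 CPM in N2NL, a log2 fold change of 0.27 ± 0.10. N2NL 1 was barely above EV 3, so the groups parted by 1 close pair of libraries. Klf12 (ENSMUSG00000072294) was low, at 3.92 ± 0.850 CPM in EV and 3.68 ± 0.149 in N2NL, a log2 fold change of -0.10 ± 0.20 with overlapping groups, whose sign turned in 1 of the 11 other ways of processing. The axon growth genes had log2 fold changes below 0. Klf7 (ENSMUSG00000025959) was at 54.2, 55.9 and 52.6 CPM in EV and 45.1, 52.1 and 52.4 CPM in N2NL, a log2 fold change of -0.12 ± 0.08. N2NL 3 lay only just below EV 3. Klf6 (ENSMUSG00000000078) varied most within its group, from 67.0 to 107 CPM in EV against 72.0 to 86.5 CPM in N2NL, a log2 fold change of -0.12 ± 0.17 whose sign turned in 1 of the 11 other ways of processing.

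Counted together, 7 of the 10 mouse members had groups that did not overlap, 6 higher in N2NL (Klf2, Klf3, Klf4, Klf5, Klf9 and Klf13) and 1 lower (Klf7). Over all tested genes 12.7% had groups that did not overlap, 7.39% with N2NL above and 5.31% with N2NL below. The median log2 fold change was 0.19 over the members and -0.01 over all tested genes. The summed level of the 10 genes was 376.6 to 411.4 CPM in EV and 416.1 to 421.3 CPM in N2NL. These values describe genes named with the comparison in view and are no test of the family.

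**Figure D3:**
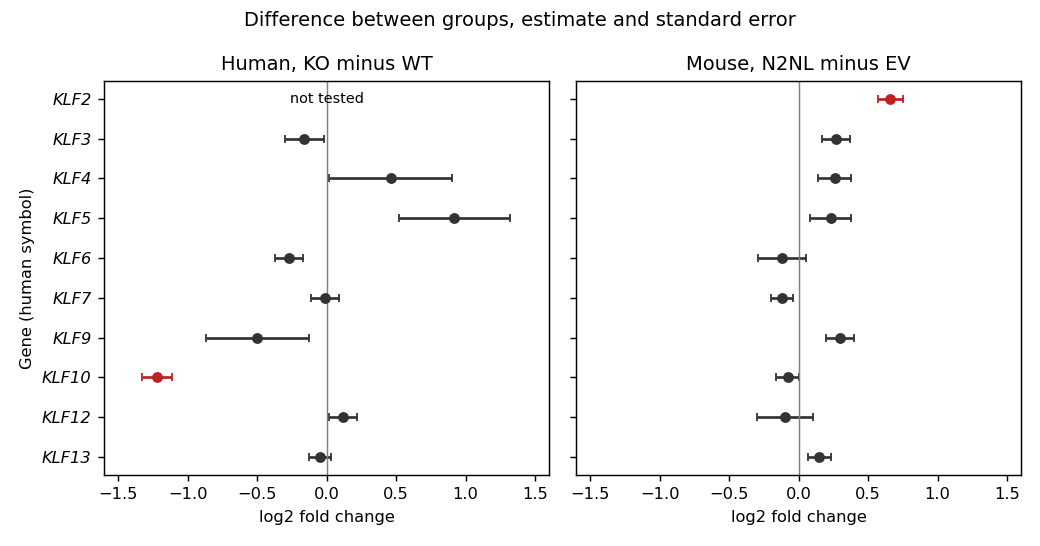
Log2 fold change of each member with its approximate standard error, KO over WT in human (left) and N2NL over EV in mouse (right); red marks a gene past the threshold and KLF2 was not tested in human. KLF10 stands at -1.22 in human and -0.08 in mouse, and KLF2 at 0.66 in mouse.

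Markers of other cell types were read beside these differences. Totals over all tested genes, for the counts given from here on, are these. An unadjusted p under 0.05 (edgeR quasi-likelihood) was reached by 3872 of 16956 in human and 1242 of 16682 in mouse. DESeq2 was run on every gene with any count, a wider set whose size is not reported here. It called 1345 human genes (593 higher, 752 lower) and 30 mouse genes (25 higher, 5 lower). Later DESeq2 counts therefore have no share over all genes beside them. Log2 fold changes in the edgeR fit lay below 0 for 8598 and above 0 for 8358 in human, and for 8626 and 8056 in mouse. In mouse, where endothelium is a known site of Klf2, the 7 endothelial markers summed to 316 to 404 CPM in EV and 260 to 378 in N2NL, and none of the 7 passed the test (edgeR quasi-likelihood; 0 at an unadjusted p under 0.05 and 0 by DESeq2). The 6 pluripotency markers summed to 372 to 399.6 CPM in EV and 401.5 to 471.5 CPM in N2NL, with all 6 log2 fold changes above 0 and none past the test (1 at an unadjusted p under 0.05; DESeq2 called Utf1). The 8 neuron markers summed to 726 to 859 CPM in EV and 631 to 702 CPM in N2NL, with 7 of 8 below 0 and none past the test (4 at an unadjusted p under 0.05; DESeq2 called Stmn2). Both sums parted the groups in the same libraries as Klf2 did, and their part in the Klf2 difference was not tested. Blood and lymphocyte markers stayed at or below 5.70 CPM in sum in all mouse libraries. Surface epithelium markers, which could bear on Klf5, ranged widely within each group (924 to 1420 CPM in EV and 692 to 1345 CPM in N2NL).

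In human, beside KLF10, the summed progenitor markers (above) and neuron markers (2727 to 3425 CPM in WT and 2641 to 3802 in KO) overlapped between genotypes, although 1 of the 8 neuron markers, TUBB3, fell from 26.4 ± 1.45 to 18.35 ± 1.48 CPM (log2 fold change -0.52 ± 0.12; edgeR quasi-likelihood, adjusted p = 0.0316), against 3.19% of all tested genes lower. ELAVL4 lay the other way, at 66.8 ± 2.86 CPM in WT and 94.8 ± 19.9 in KO, with every KO library above WT (log2 fold change 0.51 ± 0.14; edgeR quasi-likelihood, adjusted p = 0.0621), and DESeq2 called it as well as TUBB3. Endothelial markers summed to 4.60 to 13.4 CPM in WT and 9.95 to 12.2 in KO. Blood and microglia markers reached at most 1.97 CPM, with TYROBP at 0, and lymphocyte markers at most 0.245 CPM, with CD3E and CD3D at 0. Pluripotency markers summed to 4.60 to 10.8 CPM in WT and 1.97 to 4.47 CPM in KO, with TDGF1 at 0 and DPPA4 the only marker high enough to test. That low sum parted the genotypes as KLF10 did, and its part was not tested. Mesenchyme and neural crest markers (36.4 to 59.4 CPM in WT and 37.3 to 63.4 in KO) overlapped as a sum, with PDGFRB higher in KO (log2 fold change 1.13 ± 0.25; edgeR quasi-likelihood, adjusted p = 0.0402) and LUM lower (-2.04 ± 0.40; adjusted p = 0.0181) among 5 tested, 4 of them at an unadjusted p under 0.05, against 5.5% of all tested genes called. DESeq2, which tests more of the low genes, called 5 of the 9 markers: PDGFRB and LUM, and also PDGFRA (4.40 ± 2.21 CPM in WT and 9.63 ± 2.47 in KO), COL3A1 (1.77 ± 1.91 and 0.250 ± 0.158) and FOXD3 (3.52 ± 3.40 and 0.424 ± 0.109), with overlapping groups for COL3A1 and FOXD3. The genes of this list thus differed in both directions beside KLF10, and their part in its difference was not tested.

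The KLF genes outside the 10 and the SP genes, which carry the same kind of zinc fingers, were tested beside them. These relatives and the gene lists below were chosen with earlier results of these data known. Their p-values and calls are given as a description and are no independent support. In human 4 of the 8 other KLF genes and 7 of the 9 SP genes passed the filter on low counts, and 3 of these 11 passed the test: KLF8 and SP9 rose in KO and KLF11 fell. Over all tested genes 2.31% were higher and 3.19% lower. KLF11, the close relative of KLF10 that TGF-beta also induces, was at 34.7, 31.1 and 36.4 CPM in WT 1 to 3 and 19.5, 19.1 and 19.5 CPM in KO 1 to 3. The KO libraries were nearly identical to each other and far below WT, with a log2 fold change of -0.82 ± 0.11 (edgeR quasi-likelihood, adjusted p = 0.00334), and the call held in all 11 other ways of processing, at -0.87 to -0.76. KLF10 and KLF11 were thus both lower in the same 3 KO libraries.

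KLF8, a repressor of the CtBP-recruiting branch, had 0 counts in each WT library and 49, 59 and 53 counts in KO 1 to 3. The gene was read in all KO libraries and in no WT library. Against a floor of 3 counts over the WT group it was at least 53.1-fold higher in KO (edgeR quasi-likelihood, adjusted p = 4.17e-04), at 3.39 ± 0.311 CPM. KLF8 passed the filter on low counts only through the KO libraries, so its p-value is no separate support. SP9, a factor of ventral forebrain interneurons, was at 0.907, 0.305 and 0.730 CPM in WT and 8.13, 7.82 and 13.2 CPM in KO. All KO libraries were far above WT, with KO 3 the highest, and the log2 fold change was 3.90 ± 0.37 (edgeR quasi-likelihood, adjusted p = 3.77e-04). SP9, with 14, 5 and 11 counts in WT 1 to 3, also needed the KO libraries to pass the filter. SP9 and KLF8 kept their calls in all 11 other ways of processing, which describes the fits and adds no support.

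Among the relatives that did not pass, KLF15, a glucocorticoid-responsive metabolic regulator, was at 5.25, 3.90 and 4.98 CPM in WT and 9.95, 8.71 and 6.73 CPM in KO. Every KO library lay above WT, and the log2 fold change of 0.85 ± 0.22 narrowly missed the threshold (edgeR quasi-likelihood, adjusted p = 0.0516; 0.00661 to 0.19 over the other ways of processing, past the threshold in 5 of 11). SP8, which patterns the forebrain, was at 20.5, 9.99 and 9.69 CPM in WT and 30.3, 33.4 and 30.3 CPM in KO, a log2 fold change of 1.23 ± 0.28 (edgeR quasi-likelihood, adjusted p = 0.0535; past the threshold in 4 of 11 others). WT 1 was about as far from the other WT libraries as from KO, and without it the log2 fold change was 1.67 and passed the threshold. All 7 tested SP genes had log2 fold changes above 0, with a median of 0.20, SP1 and SP2 each at 0.01. The sign turned for SP1 in 4, for SP2 in 3 and for SP4 in 1 of the 11 other ways of processing.

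In mouse none of the 5 other KLF genes and 7 SP genes tested passed the test (edgeR quasi-likelihood; 0 KLF and 2 SP genes at an unadjusted p under 0.05, and 0 by DESeq2). The median log2 fold change was 0.07 for these KLF genes and 0.04 for the SP genes. Klf11 was at 38.3 ± 0.956 CPM in EV and 40.3 ± 1.53 in N2NL, and Klf8, which had 0 counts in human WT, at 11.8 ± 1.64 and 11.9 ± 0.857. The widest differences were Klf14 (0.756 ± 0.128 and 0.618 ± 0.0856 CPM), Sp8 (28.5 ± 2.56 and 33.7 ± 4.11) and Sp2 (52.8 ± 0.135 and 60.1 ± 3.68), the last with N2NL above EV in every library. Sp9 was too low to test.

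**Figure D4:**
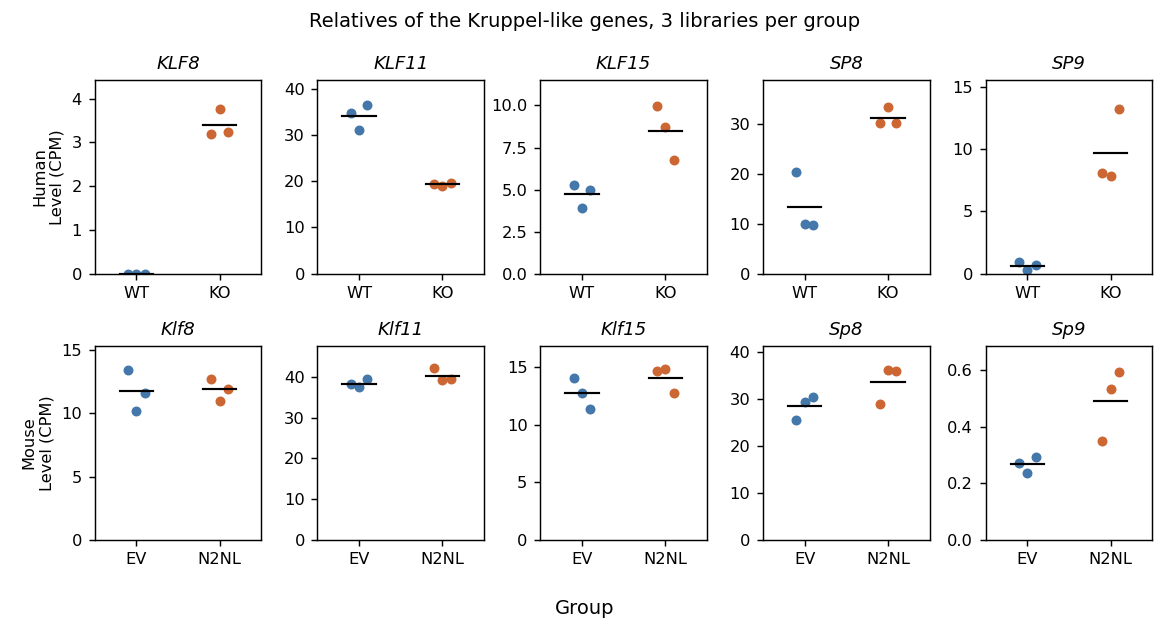
Level in CPM, on axes that start at 0, of KLF8, KLF11, KLF15, SP8 and SP9 in human (top, WT and KO) and of their mouse orthologs (bottom, EV and N2NL); points are libraries and bars the mean of 3. KLF11 is at 31.1 to 36.4 CPM in WT and 19.1 to 19.5 in KO, and KLF8 is at 0 in all WT libraries.

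The upstream arm of KLF2 was read through MEKK2 and MEKK3, MEK5, ERK5, the MEF2 factors that bind the motif shown above and the class IIa deacetylases that hold MEF2 back. In human none of 11 tested genes passed the test (edgeR quasi-likelihood; 1 at an unadjusted p under 0.05, 0 by DESeq2), with a median log2 fold change of -0.06. The widest was MEF2C, at 8.18 ± 2.02 CPM in WT and 12.2 ± 2.68 in KO (0.58 ± 0.23). In mouse, where Klf2 was higher, none of 11 passed either (1 at an unadjusted p under 0.05, 0 by DESeq2), 8 of the 11 lay above 0 and the median was 0.10. Hdac7 was the widest there, at 65.6 ± 8.19 CPM in EV and 77.0 ± 4.97 in N2NL (0.23 ± 0.09).

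The CCM complex, which restrains MEKK3 and thereby KLF2 and KLF4 in endothelium, gave no call among its 4 genes in either species (1 at an unadjusted p under 0.05 in human and 0 in mouse; 0 by DESeq2 in both). KRIT1 was the widest in human, at 24.4 ± 2.45 CPM in WT and 31.0 ± 1.95 in KO, a log2 fold change of 0.35 ± 0.12. Genes that endothelial KLF2 or KLF4 is known to raise or lower gave none past the test among 7 in human (2 at an unadjusted p under 0.05; DESeq2 called NQO1) and none among 13 in mouse (0 at an unadjusted p under 0.05, 0 by DESeq2). In mouse 10 of these 13 lay below 0, with a median of -0.08.

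The pluripotency partners of KLF2, KLF4 and KLF5 were mostly silent in human and active in mouse. In mouse 15 of 16 had log2 fold changes above 0, with a median of 0.18, and none passed the test (edgeR quasi-likelihood; 5 at an unadjusted p under 0.05; DESeq2 called Utf1). Their summed level was 1073 to 1121 CPM in EV and 1222 to 1256 CPM in N2NL. The groups did not overlap in that sum. Every pluripotency marker given above except Dppa4 is also in this list, so the sums are not separate observations. Utf1, a chromatin factor of undifferentiated stem cells, was the widest, at 50.7 ± 1.63 CPM in EV and 66.3 ± 6.05 in N2NL (0.39 ± 0.08; adjusted p = 0.222). In human 6 of 16 were high enough to test, none passed (1 at an unadjusted p under 0.05, 0 by DESeq2) and FGF4 and TDGF1 were at 0.

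TGF-beta and activin early response genes, the setting in which KLF10 and KLF11 are induced, gave none past the test in human among 9 (edgeR quasi-likelihood; 1 at an unadjusted p under 0.05, 0 by DESeq2). Their median log2 fold change was 0.10, with 6 above 0 and 3 below. BAMBI, a decoy receptor of the pathway, was the widest at 6.78 ± 2.17 CPM in WT and 10.7 ± 1.76 in KO (0.65 ± 0.25). In mouse none of 9 passed (2 at an unadjusted p under 0.05, 0 by DESeq2) and the median was 0.15.

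Of 11 tested glucocorticoid and thyroid hormone response genes in human, to which KLF9 belongs, 1 fell and 10 did not pass, against 5.5% of all tested genes called in either direction and 3.19% lower. The median log2 fold change of the 11 was 0.14, with 7 above 0 and 4 below. An unadjusted p under 0.05 (edgeR quasi-likelihood) was reached by 4 of the 11. DESeq2 called 3: PER1, ZBTB16 (7.70 ± 0.865 CPM in WT and 4.11 ± 1.24 in KO) and, in the other direction, DIO3 (3.94 ± 1.81 and 9.09 ± 4.79 CPM). PER1, a clock gene that glucocorticoids induce, was at 48.2, 47.2 and 49.8 CPM in WT 1 to 3 and 37.6, 33.1 and 27.2 CPM in KO 1 to 3. The groups were apart, with KO 3 the lowest. The log2 fold change was -0.57 ± 0.12 (edgeR quasi-likelihood, adjusted p = 0.0279; 1.72e-04 to 0.127 over the other ways of processing), and it was lost without WT 2 (-0.58), WT 3 (-0.55), KO 2 (-0.58) or KO 3 (-0.45). In mouse none of 12 passed (2 at an unadjusted p under 0.05, 0 by DESeq2), and Fkbp5, a steroid receptor chaperone, was the widest, at 76.0 ± 1.78 CPM in EV and 95.1 ± 4.67 in N2NL (0.32 ± 0.07; adjusted p = 0.222).

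Serum- and stress-induced genes, which share their induction with KLF2, KLF4, KLF6 and KLF10, moved in both directions in human. Of 13 tested, EGR3 and CCN1 rose and IER2 fell, and the other 10 did not pass, against 5.5% of all tested genes in either direction. CCN1, a matrix protein gene induced by serum and by YAP (CYR61 in the deposited table), was at 6.72 ± 0.735 CPM in WT and 14.4 ± 3.02 in KO, a log2 fold change of 1.10 ± 0.19 (edgeR quasi-likelihood, adjusted p = 0.0114), lost without WT 3 (1.18). EGR3 stood at 2.47 ± 0.34 (adjusted p = 0.00353) and IER2 at -0.52 ± 0.09 (adjusted p = 0.0135) as log2 fold changes, the second lost without WT 3 (-0.55) or KO 1 (-0.55). EGR3 had 9, 6 and 8 counts in WT 1 to 3 and passed the filter on low counts only through the KO libraries. The p-value of EGR3 is therefore no separate support. In mouse none of 13 passed (3 at an unadjusted p under 0.05, 0 by DESeq2).

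Genes of neurite growth, a process that KLF6 and KLF7 promote and KLF4 and KLF9 restrain, lay below 0 in 10 of 11 cases in each species, with medians of -0.18 in human and -0.22 in mouse. Over all tested genes 8598 of 16956 in human and 8626 of 16682 in mouse lay below 0. The list also holds CDKN1A and CDKN1C, and it shares DCX and STMN2 with the neuron markers. None of the 11 listed genes passed the test in human (edgeR quasi-likelihood; 2 at an unadjusted p under 0.05; DESeq2 called CDKN1A, a cell cycle inhibitor) or in mouse (4 at an unadjusted p under 0.05; DESeq2 called Gap43 and Stmn2). Gap43, a growth cone protein, was the widest in mouse, at 118 ± 7.06 CPM in EV and 88.4 ± 5.28 in N2NL (-0.42 ± 0.08; adjusted p = 0.116). It moved with the lower sum of neuron markers in N2NL given above, whose part was not tested. Among 7 cell cycle genes known as KLF4 and KLF6 targets, CCNB1 rose in human KO, from 100.5 ± 14.5 to 142 ± 3.74 CPM (0.50 ± 0.11; adjusted p = 0.0269), and 6 did not pass. DESeq2 called 4 of the 7, among them CCNB1 higher and CDKN1A and CCND1 lower. The CCNB1 call was lost without WT 3 (0.55), KO 1 (0.49), KO 2 (0.50) or KO 3 (0.52). None of the 7 passed in mouse (0 at an unadjusted p under 0.05, 0 by DESeq2).

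The co-repressors, co-activators and ubiquitin ligases through which KLF proteins act, among them CtBP and Sin3 subunits, were all high enough to test. Some varied within a group, such as HDAC1 at 171.5, 110.6 and 127 CPM in WT 1 to 3. None of the 14 passed in human (edgeR quasi-likelihood; 1 at an unadjusted p under 0.05, 0 by DESeq2) or in mouse (2 at an unadjusted p under 0.05, 0 by DESeq2), with medians of 0.03 and 0.07. CREBBP, an acetyltransferase that several KLF proteins recruit, was the widest in human, at 124.5 ± 2.45 CPM in WT and 151.5 ± 6.88 in KO (0.28 ± 0.08; adjusted p = 0.0592).

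The 5 mouse genes whose pattern over the 6 libraries lay nearest to that of Klf2 were leucine rich repeat containing 15 (root mean square difference of centred log2 CPM 0.073), cadherin 22 (0.092), solute carrier organic anion transporter family member 4C1 (0.096), doublesex and mab-3 related transcription factor 3 (0.099) and tweety homolog 1 (0.104), out of 14989 candidates. A higher level in N2NL is built into this ranking, since it picks genes that follow Klf2, and is no result about them. The doublesex-related gene, a cortical patterning factor, was at 43.9 ± 2.62 CPM in EV and 62.7 ± 3.03 in N2NL. None of the 5 passed the test on its own. Human KLF2 was too low for such a search.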

How the data were processed

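Gene-level RNA-seq was read in 12 libraries, 3 per group. The authors deposited raw read counts per Ensembl gene, and tables of their own comparison. Per the file headers these hold normalized values (treated as a score), standard errors and p-values, and in the human table also log2 fold changes. Aligners STAR 2.4.0 and Bowtie2 2.3.3.1, the counter HTSeq 0.6.1p1, the trimmer Trimmomatic 0.36, DESeq2 2.11.39 and the builds GRCh38 and GRCm38 are listed in the submitters' processing notes. Which aligner served which step, and the strand setting, are not given in the sources used here. In the human table the normalized columns of replicates 1 and 3 are exchanged relative to the raw counts in both groups, and replicate numbers here follow the raw counts. Mouse summary lines that name no gene (5.77% to 6.5% of reads outside genes, 26.6% to 33.7% aligned to several places) were left out.

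The counts were tested with edgeR 4.0.16 in R 4.3.3 (filterByExpr, TMM factors, robust quasi-likelihood F test, group as the 1 term), separately per species, with Benjamini-Hochberg adjustment over all 16956 human and 16682 mouse genes tested and a threshold of 0.05. Standard errors are the log2 fold change divided by the square root of F. An exact permutation test of 3 against 3 libraries was not used. The 11 alternatives per species were DESeq2 size factors, library size alone, the DESeq2 1.42.0 test, no filter on low counts, a replicate block and leaving out each library. The script was checked on simulated data.

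The members and the gene lists were chosen with earlier results of these data known. All members are named; other KLF and SP genes are named where called or of widest change; of each list the called genes, or otherwise the widest, are named (1 is not reported here). Mouse Klf8 and Klf11, neuronatin, single markers, genes called by DESeq2 alone and the doublesex-related gene were named after their values were seen. Genes nearest to Klf2 were ranked over tested genes with a mean of at least 1 CPM. Of 195 list genes 195 had a human and 194 a mouse row. Promoter windows come from the RefSeq table of GRCh38.p14 and gene positions from GENCODE 29.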

Additional observations from a re-analysis of the deposited data

How the results depend on the processing

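Of the members, every human value kept its side of the threshold in all 11 alternatives (99 of 99 values), and in mouse 106 of 110 did. The exceptions are the 4 fits in which Klf2 no longer passed, so the number of mouse members called ranged from 0 to 1 when a library was left out. The number of human genes called was 932. It was 1345 with the DESeq2 test and 2155 with no filter on low counts. When a library was left out it was 224 (without WT 3) to 1440 (without WT 1). With library size alone 454 were higher and 455 lower, against 391 and 541 with TMM factors. The 2 mouse genes called became 30 with the DESeq2 test, 117 with no filter, 21 with the replicate block and 0 to 17 when a library was left out. With the replicate block 899 human genes were called. Whether the replicate numbers pair the samples could not be settled. Same-numbered libraries correlated at 0.274, -0.157 and 0.173 in human and at 0.225, 0.0659 and -0.0153 in mouse. Not every library correlated best with its own number, but with 3 libraries per group such correlations cannot exclude a pairing. The block changed no call of a member. Why the counts move was not tested. Depth limits human KLF2, KLF4, KLF5 and KLF9, which had 1 to 25 counts per library.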
